A study of Mus musculus with 4 samples.

Results

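The matrix metalloproteinases (MMPs), the ADAM, ADAMTS and ADAMTS-like (ADAMTSL) families and the tissue inhibitors of metalloproteinases (TIMPs) were read in sorted endothelial cells (ECs) of the mouse dura mater, the outer membrane under the skull, and of the brain parenchyma. Members were all gene symbols that start with Mmp, Adam, Adamts, Adamtsl or Timp followed by a digit, which gave 84 of the 23282 symbols in each table: 23 MMPs, 33 ADAMs, 19 ADAMTSs, 5 ADAMTSLs and 4 TIMPs. The dura mater group and the brain group each held 2 libraries from C57BL/6J mice (8 weeks old), with no genotype or treatment named in the labels. Per the methods, ECs were sorted with antibodies to CD31, CD45 and TER-119, the gate itself not being spelled out, and brain ECs alone went through a magnetic bead enrichment first. This step and the tissue cannot be told apart. How many mice went into a library, and whether replicates came from separate mice, is not stated, so p-values measure the spread between these libraries, which may be technical.

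MMPs are secreted or membrane-anchored zinc proteases that cut collagens and other matrix proteins. Most ADAMs sit in the plasma membrane, and those with protease activity can release the outer part of other surface proteins. ADAMTSs are secreted and cut proteoglycans and other matrix proteins, and ADAMTSLs resemble ADAMTSs but lack the protease domain. TIMPs block these enzymes with different preferences. In endothelium, this protease and inhibitor system is known for its part in sprouting, basement membrane turnover and the shedding of adhesion molecules and receptors.

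Libraries held between 13518973 and 16096203 counts, at which depth 3 counts, the upper limit that a count of 0 allows, equal 0.184 to 0.227 CPM (counts scaled to the same library size with the TMM method). These limits cover counting error alone. The 13 pan-endothelial genes listed as markers reached 64 counts in all 4 libraries, and Ptprc, which encodes CD45, had 1 to 4 counts. Replicates were far apart for many genes: Pearson's r of log CPM across genes, which are not independent replicates, was 0.473 between the brain replicates and 0.594 between the dura mater replicates. The biological coefficient of variation was 1.39.

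Of the 84 members, 44 had 0 counts in every library, among them 21 of the 33 ADAMs and 11 of the 23 MMPs. A further 11 stayed under 64 counts everywhere. Another 13 reached 64 counts in single libraries, and 16 did so in both libraries of a tissue. Thus 29 members (34.5% of them) reached 64 counts somewhere, against 47.5% of all symbols. Per library, 9 and 12 members reached 64 counts in brain ECs, against 19 and 25 in dura mater ECs. Dura mater libraries were also richer over all symbols. There, 10246 and 11803 symbols had a count, against 9350 and 9746 in brain ECs. Of all symbols, 10447 reached 64 counts in at least 1 dura mater library and 8212 in at least 1 brain library. By that measure, the members were 29 in the dura mater and 12 in brain ECs.

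**Figure D1:**
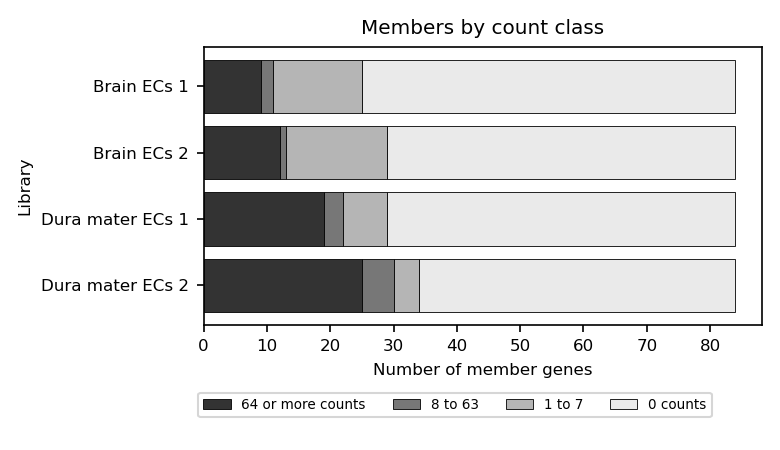
Number of the 84 member genes in 4 classes of raw count (0, 1 to 7, 8 to 63, 64 or more), 1 bar per library. The dark class holds 9 and 12 members for brain ECs and 19 and 25 for dura mater ECs.

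Many of the members at 0 lie side by side in the genome. On chromosome 9, 10 MMPs lie within one stretch (7272514 to 7699585, GRCm38), namely Mmp13, Mmp12, Mmp1b, Mmp3, Mmp1a, Mmp10, Mmp8, Mmp27, Mmp20 and Mmp7, and 7 of them had 0 counts everywhere. Mmp8, a collagenase of neutrophils, had at most 1 count per library and Mmp12, the macrophage elastase, 10 to 17. The exception was Mmp13, another collagenase, with 0, 0 and 0 counts and then 365 in dura mater replicate 2. On chromosome 8, Adam18, Adam3, Adam5, Adam32 and Adam9 lie between 24602246 and 25016927, and 4 of the 5 had 0 counts. Adam9 had 0 and 2 counts in brain ECs, against 0 and 171 in the dura mater. The other chromosome 8 groups, Adam24, Adam25, Adam20 and Adam39 (40675077 to 40827037) and Adam26b, Adam26a and Adam34 (43519762 to 43710049), had 0 counts throughout. Mmp9, the gelatinase that neutrophils store, had 0, 0, 1 and 0 counts.

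Promoter motifs differed between the chromosome 9 MMP cluster and the counted members. RefSeq (GRCm38.p6) promoters were at hand for 53 of the 84 symbols (58 windows), and the 250 bases before the start were searched on both strands. The AP-1 motif TGANTCA, to which Fos and Jun proteins bind, was found for 8 of the 10 cluster genes (for Mmp12 only in its second window, which starts 2993 bases inside the gene) and for none of the 11 members with 64 counts in both libraries of a tissue and a promoter at hand, against 6.75% of all 32851 windows of that length. The GC box GGGCGG was found for all 11 of these and for none of the 10 cluster genes (32.7% of all windows). TATAAA was found for 7 of the cluster genes and for Adamts1 among the 11 (12.4% of all windows). Of the remaining 32 members with a promoter at hand, 4 had the AP-1 motif, 13 the GC box and 5 TATAAA. Some of those with a GC box, such as Mmp25 and Mmp28, had 0 counts in every library, so the GC box was not confined to counted members. Of the other motifs searched, TGACGTCA, CCGGAAGT, the SRF CArG box and the NF-kB motif (1 exact spelling each) matched no member window, and CACGTG matched 5 of the 58. GC content differed too, since the windows of the 11 ranged from 55.2% to 79.2% G or C, and the cluster windows from 37.2% to 53.2%, so motif and base composition run together. Some RefSeq starts lie inside the GENCODE gene, by 3994 bases for Mmp11, 329 for Timp2 and 40 for Timp3 among the 11, and by 16 to 2993 bases for windows of Mmp12, Mmp7 and Mmp1b in the cluster. A match is a run of letters, not a shown binding site, and the absence of one says nothing about the factor.

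The windows of 3 counted members and of 3 cluster genes are shown because they carry this contrast. Each is the last 150 bases before the RefSeq start, 5′ to 3′ on the gene's strand, and capitals mark GC box, AP-1 and TATA matches on either strand, which did not overlap one another here. Adamts1 (chr16:85803114-85803263, minus strand), Mmp14 (chr14:54431448-54431597, plus) and Adam17 (chr12:21373633-21373782, minus) hold GC boxes. Mmp13 (chr9:7272364-7272513, plus), Mmp3 (chr9:7445672-7445821, plus) and Mmp10 (chr9:7502192-7502341, plus) hold an AP-1 motif upstream of TATAAA.
Adamts1: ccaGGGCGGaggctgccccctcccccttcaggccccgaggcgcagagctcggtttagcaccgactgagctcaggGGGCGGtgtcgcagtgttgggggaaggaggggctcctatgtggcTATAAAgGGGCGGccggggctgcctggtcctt
Mmp14: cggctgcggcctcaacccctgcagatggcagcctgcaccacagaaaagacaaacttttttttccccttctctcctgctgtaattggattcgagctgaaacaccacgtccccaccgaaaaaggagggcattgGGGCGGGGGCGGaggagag
Adam17: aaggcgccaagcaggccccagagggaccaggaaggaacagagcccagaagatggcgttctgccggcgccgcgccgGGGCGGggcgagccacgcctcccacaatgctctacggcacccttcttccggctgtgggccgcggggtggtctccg
Mmp13: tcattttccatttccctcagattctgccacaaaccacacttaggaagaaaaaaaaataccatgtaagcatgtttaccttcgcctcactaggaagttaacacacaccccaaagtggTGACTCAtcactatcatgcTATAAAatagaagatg
Mmp3: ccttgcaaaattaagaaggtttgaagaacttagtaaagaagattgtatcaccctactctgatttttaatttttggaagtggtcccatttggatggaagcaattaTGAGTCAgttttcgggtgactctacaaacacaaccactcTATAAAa
Mmp10: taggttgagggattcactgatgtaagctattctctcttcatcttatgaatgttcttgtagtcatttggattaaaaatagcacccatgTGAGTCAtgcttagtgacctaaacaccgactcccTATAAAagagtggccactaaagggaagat

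The comparison of dura mater with brain ECs was made in edgeR's quasi-likelihood test over all genes, and a gene was called at an adjusted p under 0.05. Of the 84 members, 22 passed the filter on low counts and were tested, and 0 were called, where 0.61% of all 9347 genes tested were. At an unadjusted p under 0.05 there were 6 (Mmp2, Mmp14, Adamts1, Adamts5, Adamts9 and Timp2), all higher in dura mater ECs, where 7.04% of all genes tested were higher at that level. In a simulation, every gene had the same biological coefficient of variation, 1.39, and the changed genes a log2 fold change of 3. There, edgeR recovered 0 of 200 changed genes, and DESeq2 recovered 20 with 170 false calls. Genes of these libraries do not share 1 variation, so the simulation cannot tell how firm a single call is. As the calls also change with the tool, neither the 0 calls nor the DESeq2 calls are taken as firm. DESeq2 called 7 members (the same 6 and Mmp11, all higher), against 6.9% of genes called higher in that tool, and limma-voom called Adamts1, against 0.428% called higher, which is also the share edgeR called higher. DESeq2 on all rows with counts called 9 (8.43% of genes higher). Adamts1, Timp2 and Mmp14 were called with edgeR's newer dispersion estimate (1.93%) and without a filter on low counts (1.43%). Adamts1 and Timp2 were called with 10 counts or more in every library (1.57%) and with a replicate block (1.42%). Of the 22, 17 had a log2 fold change above 0, against 49.8% of all genes tested. The libraries of the 2 tissues did not overlap for 13 members higher in dura mater ECs (26.2% of all genes tested) and for 3 lower (16.9%). These counts are a description and not support, since 9 of the 22 had under 10 counts in both brain libraries and so passed the filter through the dura mater alone.

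**Figure D2:**
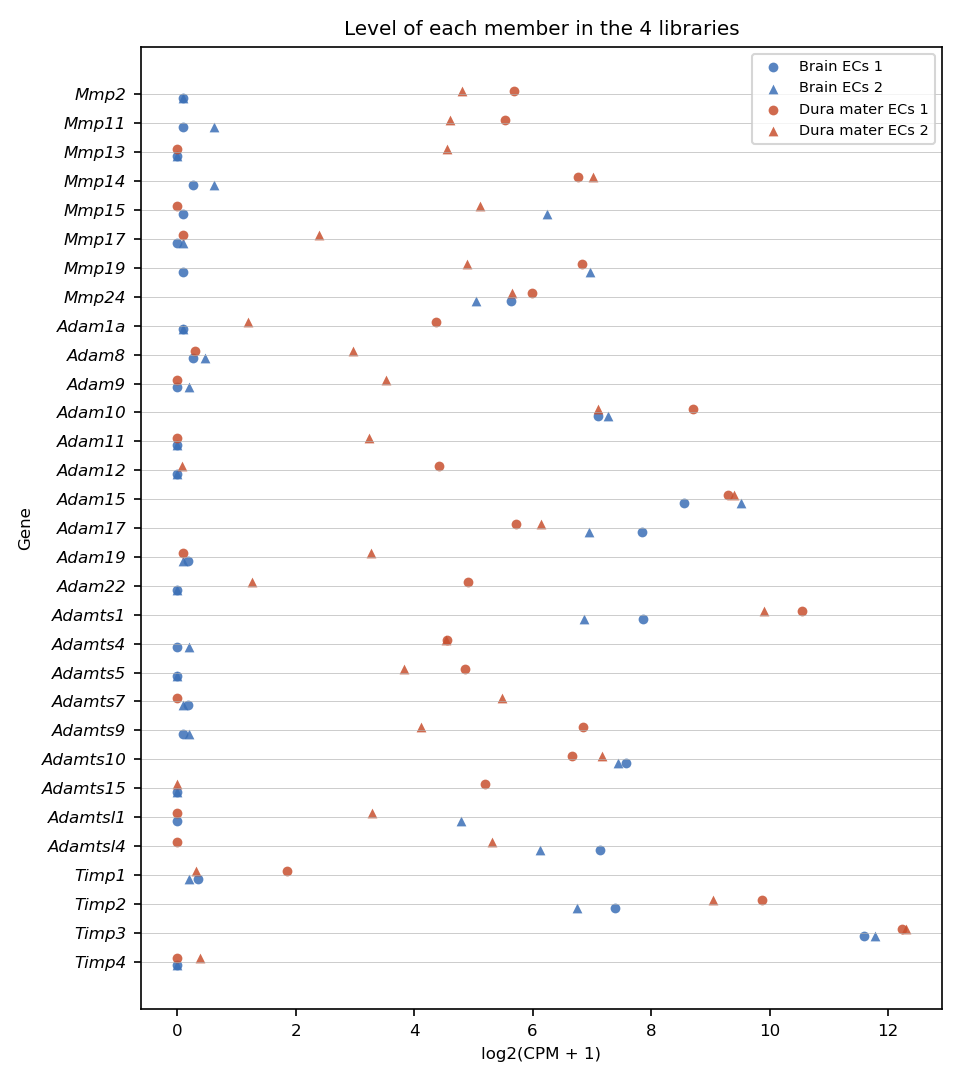
Level of each member with 64 counts or more in any library, and of all 4 TIMPs, as log2(CPM + 1) on a linear axis. Circles are replicate 1 and triangles replicate 2, blue for brain ECs and red for dura mater ECs, so that for Mmp2, Mmp14, Adamts4 and Adamts5 both brain points sit near 0 and both dura mater points well above.

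Of the MMPs, Mmp14, Mmp2 and Mmp11 were near 0 in brain ECs and counted in both dura mater libraries. Mmp14 encodes a membrane-anchored collagenase that activates the MMP2 proenzyme, with TIMP2 as a bridge, and lies on chromosome 14 (54431612 to 54445364, plus strand, GRCm38). It had 3 and 7 counts in brain ECs, against 1446 and 2099 in the dura mater. The groups were far apart and both dura mater libraries were alike, at 108 and 129 CPM. Over summed counts scaled to library size it was 331-fold higher in dura mater ECs (exact 95% interval 180 to 690, counting error alone). Its log2 fold change was 7.87 (SE 1.51) and its edgeR adjusted p was 0.126, from 8.9e-10 to 0.765 over the alternatives.

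Mmp2, gelatinase A, cuts type IV collagen of the basement membrane (chromosome 8, 92827291 to 92853420, plus strand). It had 1 count in each brain library, against 676 and 442 in the dura mater. The summed ratio was 521 (interval 144 to 4309), with 7.52 as log2 fold change (SE 2.68, edgeR adjusted p 0.466, from 0.000193 to 1.00 over the alternatives). Mmp11, stromelysin-3, which furin activates inside the cell, lies on chromosome 10 (75923222 to 75936496, minus strand). It had 1 and 7 counts against 608 and 381, a ratio of 115 (interval 58.3 to 268), a log2 fold change of 6.30 (SE 2.92) and an edgeR adjusted p of 0.494. An antisense gene, Chchd10, covers 5.58% of the exon length of Mmp11 and had 776, 3, 968 and 228 counts. In brain replicate 1, where Chchd10 had 776 counts, Mmp11 had 1. Strand use is not stated, and how many Mmp11 counts belong to Chchd10 was not tested.

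The other MMPs were uneven or close in level between the tissues. Mmp15, which encodes a membrane-type MMP, had 1 and 993 counts in brain ECs, against 0 and 551 in the dura mater, so replicate 2 was the high one in each tissue. Mmp19 had 1 and 1644 counts against 1515 and 471. Mmp24, a membrane-type MMP known from neurons, had 709 and 424 against 834 and 806, with 0.46 as log2 fold change (SE 1.32, edgeR adjusted p 1.00). Its libraries did not overlap, but only just, at 48.9 and 32.1 CPM against 62.2 and 49.4 CPM. The values of both Mmp19 and Mmp24 are uncertain as single genes. Tmem198b, antisense to 22.3% of the exon length of Mmp19, and BC029722, antisense to 13.6% of that of Mmp24, had the same count as their partner in each of the 4 libraries, so 1 set of reads may stand under both symbols. The log2 fold change of Mmp19 (0.19, SE 2.25) turned to −0.81 without brain replicate 1 and to −1.10 without dura mater replicate 1. Mmp17, a membrane-type MMP, was near 0 except in dura mater replicate 2 (69 counts), and Mmp16 had 50 counts there and 0 elsewhere.

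Among secreted ADAMTS proteases, Adamts1 was counted in every library. ADAMTS1 cuts the proteoglycans versican and aggrecan, and its gene lies on chromosome 16 (85793827 to 85803113, minus strand). Brain ECs had 3377 and 1534 counts and dura mater ECs 20015 and 15576. Both dura mater libraries were above both brain libraries, at 1223 ± 381 against 174 ± 82.7 CPM (SD, n = 2). The log2 fold change was 2.81 (SE 0.49). Its edgeR adjusted p, the smallest of the 22 members tested, was 0.0942, from 1.9e-07 to 0.224 over the alternatives. Early response genes, such as Fosb, Egr1 and Junb, were also higher. All 10 of those listed were higher without overlap (26.2% of all genes tested) and 5 of them called (0.428% called higher). Their summed level was 4537 and 5003 CPM in brain ECs, against 24268 and 28102 CPM in the dura mater. This list was chosen after its values were known, and its part in the level of Adamts1 was not tested.

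Adamts4 and Adamts5, the aggrecanases, and Adamts9, another versican-cutting protease, were at or near 0 in brain ECs. Adamts5 (chromosome 16, 85856173 to 85901828, minus strand) had 377 and 216 counts in the dura mater and 0 in either brain library. The level was at least 184-fold higher than in brain, against 3 counts over the brain group (edgeR adjusted p 0.466, from 0.013 to 1.00 over the alternatives). Adamts4 (chromosome 1, 171250421 to 171260637, plus strand) had 0 and 2 counts against 302 and 362, a ratio of 310 (interval 85.4 to 2561), with dura mater libraries at 22.5 and 22.2 CPM. Its log2 fold change was 6.71 (SE 3.17, edgeR adjusted p 0.503). Adamts9 (chromosome 6, 92772699 to 92943492, minus strand) had 1 and 2 counts against 1533 and 266, a ratio of 559 (interval 191 to 2714). Its dura mater libraries differed from each other, at 114 and 16.3 CPM, and its log2 fold change was 8.04 (SE 2.38, edgeR adjusted p 0.357). Antisense genes cover 9.18% and 2.82% of the exon length of Adamts9 and 3.56% of that of Adamts4.

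These 6 members, Mmp2, Mmp11, Mmp14, Adamts4, Adamts5 and Adamts9, were those that reached 64 counts in each dura mater library and stayed at 7 or fewer in each brain library. That is 6 of the 40 members with any count, against 5.57% of the 13660 symbols with any count. The reverse pattern held 0 members (0.344% of symbols). Fibroblast markers were also higher in dura mater ECs. Of 10 listed genes, 6 were tested. Without overlap, 5 were higher in dura mater ECs (26.2% of all genes tested) and 1 (Mgp) was called (0.428% called higher). Without Mgp, the list summed to 32.6 and 50.9 CPM in brain ECs and to 370 and 366 CPM in dura mater ECs. Dcn, a matrix proteoglycan, had 16 and 15 counts against 1184 and 1664, whereas Pdgfra, a defining receptor of fibroblasts, had at most 1 count and Lum at most 4 in any library. Lymphatic endothelial markers summed to 123 and 145 CPM in brain and to 433 and 645 CPM in the dura mater. Of these 7 markers, 5 were tested, all 5 higher without overlap (26.2% of all genes tested) and 0 called. Astrocyte markers summed to 52.4 and 80.0 CPM against 437 and 179 CPM. Of the 4 tested, 3 were higher in dura mater ECs without overlap (26.2% of all genes tested) and 0 were called. Aqp4 was at 0 in all libraries. Mural markers overlapped (710 and 1178 against 1189 and 686 summed CPM), and neutrophil markers were near 0 (2.21 to 3.63 summed CPM in all 4 libraries). The part of these cells in the 6 members' levels was not tested. In bulk libraries, fewer cells of a type and less RNA per cell cannot be told apart.

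**Figure D3:**
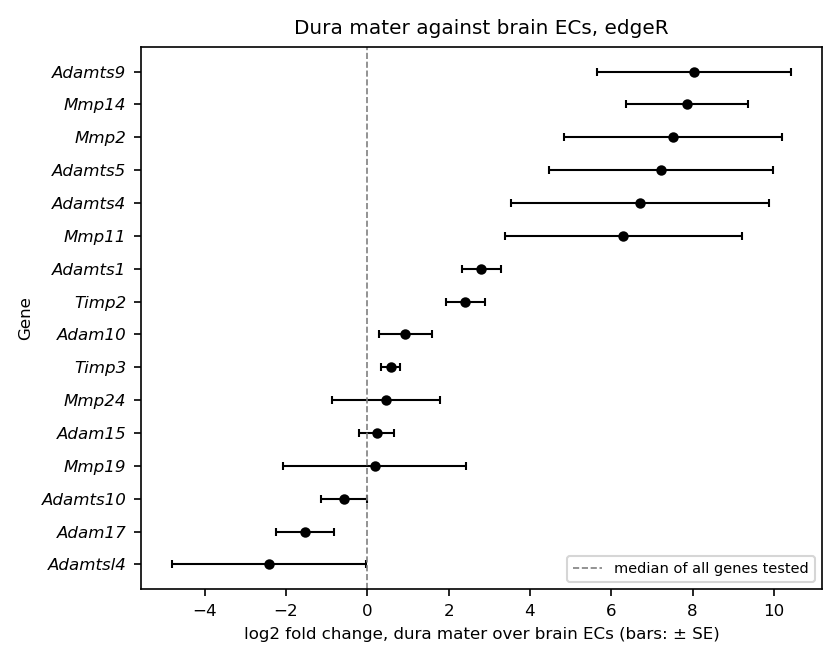
Log2 fold change of dura mater over brain ECs for the 16 members with 64 counts in both libraries of a tissue, with bars of ± 1 SE from edgeR and a dashed line at the median of all genes tested (−0.0069). Adamts1 and Timp2 have short bars around 2.81 and 2.41, and the 6 members near 0 in brain ECs sit at 6.30 to 8.04 with longer bars and values that depend on the prior count, while Adam17, Adamts10 and Adamtsl4 sit below 0.

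Adamts10, which binds fibrillin-1 in microfibrils, was higher in brain ECs without overlap, with 2742 and 2284 counts in brain ECs, against 1346 and 2330 in the dura mater. In CPM, brain libraries were at 189 and 173 and dura mater libraries at 100 and 143. The log2 fold change was −0.57 (SE 0.57, edgeR adjusted p 0.968), a difference within its error. Adamts7, Adamts15 and Adamts13 were low or uneven. Adamts7 had 2, 1, 0 and 710 counts, and Adamts15 had 480 counts in dura mater replicate 1 and 0 in the other 3 libraries. Adamts13, which cuts von Willebrand factor, had 9 and 2 counts against 32 and 25.

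ADAMTSL genes were the subfamily with more counts in brain ECs. Adamtsl4, a microfibril-binding protein gene, lies on chromosome 3 (95676201 to 95687917, minus strand). It had 2032 and 913 counts in brain ECs, against 0 and 633 in the dura mater. Both brain libraries were above both dura mater libraries, at 140 and 69.0 CPM against 0 and 38.8 CPM. The log2 fold change was −2.42 (SE 2.38, edgeR adjusted p 0.968). It was −1.42 without dura mater replicate 1 and −9.49 without dura mater replicate 2, the latter against 0 counts and so dependent on the prior count. Adamtsl1 had 0 and 354 counts against 0 and 144, again high in replicate 2 of each tissue. Erythroid markers were also higher in brain ECs, although red cells were lysed and an antibody to TER-119, a red cell marker, was used in the sort. Their summed level was 18013 and 25692 CPM against 1496 and 762 CPM, with 5 of 7 tested. All 5 were lower in dura mater ECs without overlap (16.9% of all genes tested) and 3 were called (0.61% in either direction). Their part in the members higher in brain ECs (Adamts10, Adamtsl4 and Adam17) was not tested.

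Of the ADAMs, only Adam10, Adam15 and Adam17 reached 64 counts in all 4 libraries. Adam10, a sheddase of Notch receptors and cadherins, had 1979 and 2022 counts in brain ECs, against 5613 and 2233 in the dura mater. Dura mater replicate 1 alone stood above the rest, at 419 CPM against 137 to 153 CPM in the other 3 libraries. The log2 fold change (0.94, SE 0.65, edgeR adjusted p 0.786) turned to −0.075 without that library. Adam17, the sheddase of tumor necrosis factor, lies on chromosome 12 (21323509 to 21373632, minus strand) and went the other way, with 3324 and 1630 counts in brain ECs, against 689 and 1141 in the dura mater. The tissues did not overlap, at 229 and 123 CPM in brain ECs, against 51.4 and 69.9 CPM in the dura mater. Its log2 fold change was −1.54 (SE 0.71) with an edgeR adjusted p of 0.496. It kept its sign over the alternatives, from −1.92 to −1.02, and was called in none. Within a library, the ratio of Adam10 to Adam17 counts, which is not scaled for length, was 0.595 and 1.24 in brain ECs, against 8.15 and 1.96 in the dura mater.

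Adam15, a metalloprotease disintegrin of endothelial junctions, had 5408 and 9695 counts in brain ECs, against 8411 and 10975 in the dura mater. Its levels of 553 ± 254 and 650 ± 31.9 CPM overlapped (log2 fold change 0.23, SE 0.43, edgeR adjusted p 1.00), and the sign turned without brain replicate 1 (−0.17). An antisense gene covers 20.6% of its exon length. Of the less counted ADAMs, Adam12 (0 and 0 against 274 and 1 counts) and Adam22 (0 and 0 against 387 and 23) were high in dura mater replicate 1. Adam1a had 1 and 1 counts against 265 and 21, but exons of 2 genes on the same strand cover 63.7% and 24.0% of its length, so its counts are uncertain. Adam8 (3 and 5 against 3 and 111), Adam11 (0 and 0 against 0 and 137) and Adam19 (2 and 1 against 1 and 141) were high in dura mater replicate 2.

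Inhibitors held most of the members' counts. Timp3, the matrix-bound inhibitor of ADAM17 and several ADAMTSs, took 67.1% and 66.9% of all member counts in brain ECs, against 52.9% and 62.6% in the dura mater. It lies on chromosome 10 (86300372 to 86349506, plus strand) and had 44919 and 46401 counts against 64390 and 82067. The tissues did not overlap, at 3303 ± 289 and 4914 ± 159 CPM (SD, n = 2), and the log2 fold change was 0.57 (SE 0.24, edgeR adjusted p 0.466, from 0.0643 to 1.00 over the alternatives). Syn3, antisense to 21.3% of the exon length of Timp3, had 1, 0, 1 and 179 counts, so at most a small part of the Timp3 counts stands under that symbol too.

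Timp2, which both inhibits MMPs and takes part in the activation of MMP2 by MMP14, lies on chromosome 11 (118301069 to 118355740, minus strand). Brain ECs had 2417 and 1416 counts and dura mater ECs 12535 and 8590. Each dura mater library was above each brain library, at 730 ± 289 against 137 ± 42.2 CPM (SD, n = 2). The log2 fold change was 2.41 (SE 0.49, edgeR adjusted p 0.142, from 0.000377 to 0.647 over the alternatives). All 3 genes of the MMP14, TIMP2 and MMP2 activation complex were thus higher in both dura mater libraries than in both brain libraries. Of all genes tested, 26.2% were so too, and edgeR called none of the 3. Mmp14 and Mmp2 also passed the filter through the dura mater alone, so this is a description. The ratio of Timp2 to Mmp14 counts was 806 and 202 in brain ECs, resting on 3 and 7 Mmp14 counts, and 8.67 and 4.09 in dura mater ECs. Timp1, an inhibitor induced in inflammation, had 4 and 2 counts against 35 and 4, and Timp4 had 0, 0, 0 and 5.

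**Figure D4:**
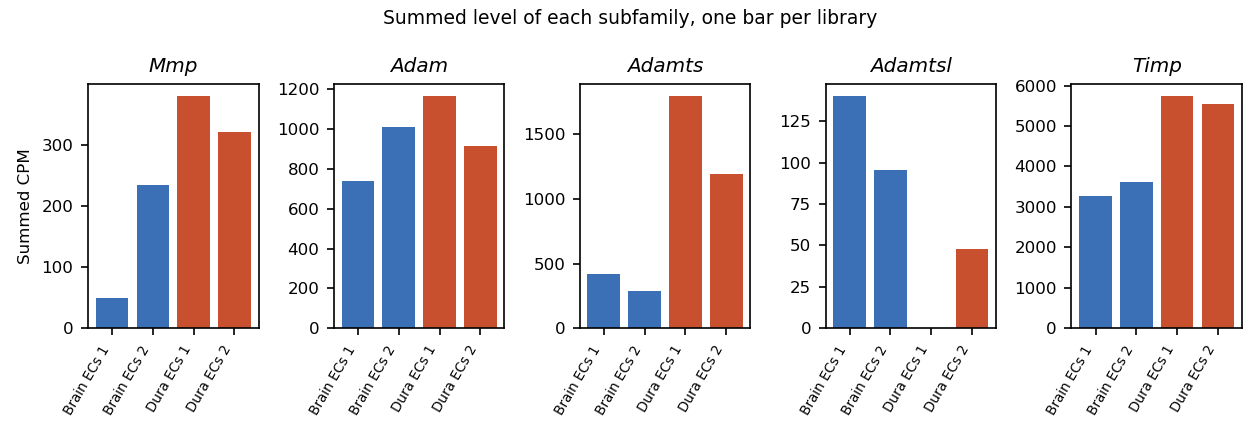
Summed CPM of all members of each subfamily, 1 bar per library (blue, brain ECs; red, dura mater ECs), with a separate linear axis from 0 for each panel. Adamts sums are 423 and 289 CPM in brain ECs, against 1796 and 1194 CPM in the dura mater, and Adam sums overlap between the tissues.

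Summed over a subfamily, ADAMTS counts rested on Adamts1 and came to 356 ± 94.7 CPM in brain ECs, against 1495 ± 426 CPM in the dura mater (SD, n = 2). TIMP sums were 3440 ± 247 and 5646 ± 131 CPM. MMP sums were 142 ± 130 and 351 ± 41.1 CPM, and ADAM sums overlapped, at 875 ± 191 and 1041 ± 177 CPM. ADAMTSL sums went the other way, at 118 ± 31.4 and 23.8 ± 33.7 CPM. These are values with no test.

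**Figure D5:**
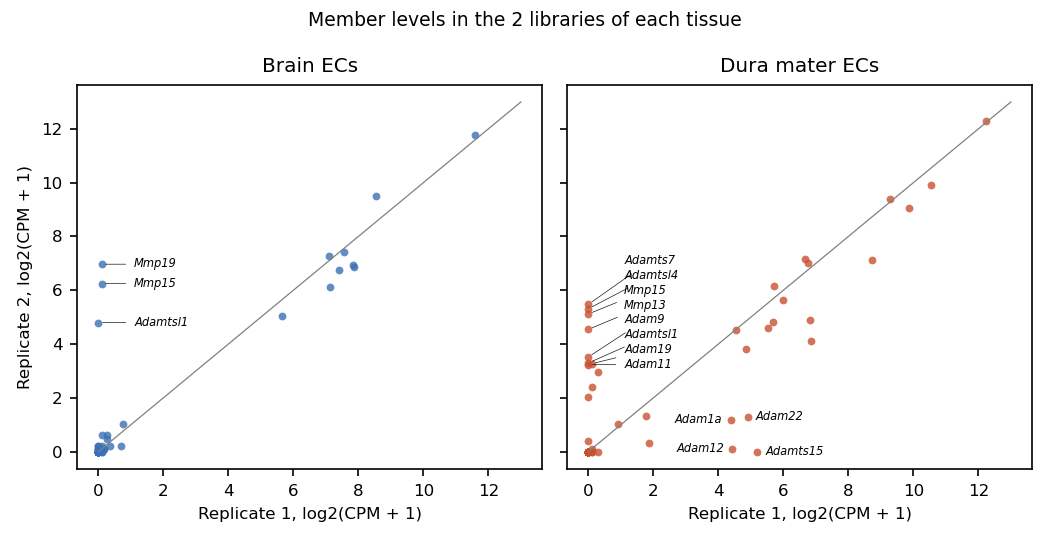
Level of the 84 members in replicate 1 (x) against replicate 2 (y) of each tissue, as log2(CPM + 1), with the line of equal level. Named points are far from that line: 3 members in brain ECs, all high in replicate 2, and in dura mater ECs a column of members at or near 0 in replicate 1 and 4 members high in replicate 1.

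Uneven replicates were common among the members. Of 12 members with 64 counts in a brain library, 3 (Mmp15, Mmp19 and Adamtsl1) had 7 or fewer in the other, and in all 3 replicate 2 was the high one. Over all symbols, 31.3% showed such a gap. Of 29 members with 64 counts in a dura mater library, 12 showed it (30.7% of all symbols), 10 high in replicate 2 and 2 (Adam12 and Adamts15) high in replicate 1.

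Other genes of the pathway were read from 5 lists. Over all 9347 genes tested, edgeR called 0.61%, and 936 had an unadjusted p under 0.05 in either direction. Also in either direction, DESeq2 called 810 of 8984 genes, DESeq2 on all rows with counts 1257 of 10483 and limma-voom 80 of 9347. EdgeR's newer dispersion estimate called 305 of 9347, and the replicate block 224 of 9347. Without a filter on low counts 326 of 13660 were called, and with 10 counts in every library 141 of 4787. Among other metzincin proteases (8 genes), Bmp1 and Tll1, procollagen C-proteinases, were tested, and edgeR called neither, while DESeq2 on all rows with counts called Tll1 (median log2 fold change 5.53). Tll1 had 346 and 100 counts in the dura mater and 0 in either brain library (edgeR adjusted p 0.466), and Bmp1 had 0 and 14 against 237 and 109 (edgeR adjusted p 0.885). Of 17 protease regulators, 11 were tested, 5 had a fold change above 0 and edgeR called 0, with 1 at an unadjusted p under 0.05. That gene was Bsg, the MMP inducer basigin, at 4619 and 12257 counts in brain ECs, against 488 and 1645 in the dura mater (log2 fold change −3.18, SE 0.76, edgeR adjusted p 0.238). Bsg was called by DESeq2, with edgeR's newer dispersion estimate, under both other filters and with the replicate block. The list's median log2 fold change was −0.02, against −0.0069 over all genes tested. Tspan14, a tetraspanin partner of ADAM10, had 2735 and 681 counts against 3701 and 5399.

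Of 10 ADAMTS partners and substrates, 7 were tested and edgeR called 0, 5 had a fold change above 0 and 4 an unadjusted p under 0.05 (median log2 fold change 1.54). DESeq2 called Vwf, Fn1, B3glct and Fbn1 (over all genes, 810 of 8984), and limma-voom called Vwf (80 of 9347). With edgeR's newer dispersion estimate, without a filter and with the replicate block Vwf and Fn1 were called, and with 10 counts in every library Vwf. Vwf, the substrate of ADAMTS13, had 4440 and 2340 counts against 12632 and 20857 (log2 fold change 2.20, SE 0.42, edgeR adjusted p 0.127). Fn1 (fibronectin) went the other way, with 16275 and 16103 against 4954 and 7672 (log2 fold change −1.48, SE 0.33, edgeR adjusted p 0.194). B3glct, which adds glucose to the fucosylated repeats of ADAMTS proteins, had 0 and 0 against 588 and 107 counts, and Fbn1 (fibrillin-1) had 1 and 0 against 251 and 544.

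Of 11 plasminogen activation genes, 7 were tested and edgeR called 0, with 0 at an unadjusted p under 0.05. Of the 7, 5 had a fold change above 0 (median log2 fold change 1.15). DESeq2 called Plaur, where it called 810 of 8984 genes over all. Plaur, the urokinase receptor, had 1 and 0 counts in brain against 164 and 658 (edgeR adjusted p 0.466). Of 20 endothelial proteins that metalloproteases are known to shed, 19 were tested and 15 had a fold change above 0 (median log2 fold change 0.98). EdgeR called 1, while DESeq2 also called Vcam1 and Efnb2 (over all genes, 810 of 8984). The gene called by edgeR, Icam1, had 707 and 877 counts against 25322 and 15998 (log2 fold change 4.64, SE 0.50, edgeR adjusted p 0.0248). Without brain replicate 1 the adjusted p of Icam1 in edgeR was 0.0973, and without brain replicate 2 it was 0.0856. Vcam1 had 9335 and 6320 against 23540 and 17294 (log2 fold change 1.33, SE 0.38, edgeR adjusted p 0.340), and Efnb2, which encodes ephrin-B2, 0 and 13 against 815 and 1418.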

How the data were processed

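RNA of sorted ECs was made into QuantSeq 3′ libraries. The authors deposited raw counts per gene symbol, 1 table per library, unscaled. The methods name TopHat for mapping and cufflinks for abundance. The submitters' processing notes list Bowtie2, edgeR and mm10. The counting program, annotation, strand setting and any molecular identifiers are not given in the sources used here. As each transcript gives reads from its 3′ end, counts were not scaled by length.

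Groups came from the sample titles. The members and gene lists were chosen with earlier results of these data known. The whole table of 23282 rows was filtered and fitted with edgeR 4.0.16 in R 4.3.3 (TMM, filterByExpr, older quasi-likelihood dispersion, tissue as the term, Benjamini-Hochberg over 9347 genes). Log2 fold changes used a prior count of 2, and the SE was the fold change over the square root of F. CPM used TMM-scaled library sizes. DESeq2 1.42.0, limma 3.58.1 (voom), other scalings, filters, a replicate block and each library left out were alternatives, and DESeq2 on all rows with counts was added after seeing the data. Members with 64 counts in any library are named, with a test where both libraries of a tissue reached 64. From each pathway list at most 6 genes are named, those with the smallest p, and marker genes were named after their values were seen. The values of 1 listed gene are not reported here. No label ties the replicate numbers across tissues, and the main fit treated the libraries as unpaired. The deviations from the tissue means correlated at −0.0208 across genes. Whether libraries of the same number share mice or a preparation is not stated, and that correlation cannot settle it. Positions are from GENCODE M21 (GRCm38), matched by symbol for 84 members.

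The edgeR and DESeq2 fits were tested on simulated data with known changes. At low variation both recovered nearly all changed genes. With every gene set to the common variation of these libraries (1.39) and a log2 fold change of 3, edgeR recovered none. DESeq2 recovered few, with more false calls than true ones. Real genes differ in variation, which the simulation leaves out.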

Additional observations from a re-analysis of the deposited data

How the results depend on the processing

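Over all genes, 57 calls became 810 in DESeq2, 1257 in DESeq2 on all rows with counts, 305 with edgeR's newer dispersion estimate, 326 without a filter on low counts and 141 with at least 10 counts in every library. With each library left out, they ranged from 0 (without brain replicate 1) to 54, with 5 without brain replicate 2 and 30 without dura mater replicate 1. Members called rose from 0 to 7 in DESeq2, 9 in DESeq2 on all rows (Adamts4 and Adamts15 added), 1 in limma-voom (Adamts1), 3 with the newer dispersion estimate and 3 without a filter (Timp2, Mmp14 and Adamts1 in each), and 2 with 10 counts in every library (Timp2 and Adamts1). The other scalings, the removal of the 10 most counted genes and leaving out any library called 0 members. With the replicate number as a block, calls over all genes were 224, with 2 members (Timp2 and Adamts1) and 4 pathway genes, but no label ties these numbers across tissues. Pathway genes called went from 1 to 9 in DESeq2 and 9 on all rows, 2 in limma-voom, 5 with the newer dispersion estimate, 4 without a filter, 3 with 10 counts in every library, and 0 to 1 with a library left out (0 without either brain library). Members without overlap fell from 16 of 22 to 6 of 9 with 10 counts in every library. In the main fit, 26.2% of all genes tested were higher without overlap and 16.9% lower. The share of all genes with 10 counts in every library is not given here, so 6 of 9 has no background to be read against. That filter tests fewer genes. The TIMP sum in dura mater ECs was 5492 CPM under RLE scaling, against 5646. The median log2 fold change of all genes (−0.0069) moved to 0.13 under upper-quartile scaling, 0.28 in limma-voom, 0.25 with the block, 0.37 and 0.35 without brain replicate 1 and 2, −0.19 without dura mater replicate 2 and −0.12 in DESeq2 on all rows, and within 0.1 of its value in the others. With a library left out, signs reversed for Mmp19 (log2 fold change −1.10 to 8.44, below 0 without brain replicate 1, −0.81, or dura mater replicate 1), Adam10 (−0.075 to 1.53, lowest without dura mater replicate 1) and Adam15 (−0.17 to 0.80, lowest without brain replicate 1). The causes were not tested.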
